A study of Saccharomyces cerevisiae with 7 samples.

Results

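The far upstream span of the PGK1 (YCR012W) reporters, 200 positions that lie 235 to 434 nt upstream of the stem loop at position 1040, was examined in all 7 libraries of the study. The same positions lie 145 to 344 nt upstream of the codon repeats, which sit at position 950. They were chosen by their reporter position alone, out of 888 positions listed in at least 1 library, and a position that a file does not list was counted as 0 reads. The reporter sequence was not used here, so the place of a position in a codon is not known and no bases are given.

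All cells were BY4741 ski2Δ and carried a plasmid with PGK1 under the GAL1 promoter, and they were grown in medium lacking uracil with galactose and raffinose. The second mutation was dom34Δ, R116A/R117A in RPS3 (referred to as rps3) or R38D/K40E in ASC1 (referred to as asc1). The stall was the stem loop (SL) in all 3 strains and 12 CGA codons, (CGA)12, or 12 AAA codons, (AAA)12, in dom34Δ and rps3 cells only. Each of the 7 conditions had 1 library, in which the RNA of 2 or more biological replicates was mixed. No replicate error can be given for this reason, and strain, culture and library preparation cannot be told apart. Cells with SKI2 deleted and no second mutation were not analysed here, so the mutants are compared only with each other.

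No-go decay (NGD) acts on mRNAs on which ribosomes have stalled. The mRNA is cut near the stall, and ribosomes that queue behind the first one move the cuts farther upstream. Dom34 (YNL001W) splits stalled ribosomes, Asc1 (YMR116C) sits on the small subunit near the mRNA exit, and residues of Rps3 (YNL178W) line the tunnel by which mRNA enters. The 5'-fragments left by a cut are normally degraded from their 3'-ends by the exosome with the helicase Ski2 (YLR398C), and in its absence their 3'-ends can be mapped. A read therefore marks the 3'-end of a 5'-fragment, which may be the place of a cut or of later trimming, and the counts do not tell these apart.

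The libraries held 606108 to 4867111 reads, and all 200 positions had reads in every library. The lowest count was 6 reads, at position 641 in rps3 cells with (CGA)12, and between 170 and 200 positions per library had at least 100 reads. Intervals in parentheses are 95% Wilson intervals. They cover counting error only, because the reads were amplified and several can come from 1 molecule. The span begins where usable counts begin: its first position had 537 to 4468 reads, against 1 to 21 at the position before it. Amplification was from a primer at position 585, so fragments that end upstream of it are hardly counted.

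With the SL reporter the far upstream positions held a large part of the mapped 3'-ends in each strain. Their share of the library was 69.8% in dom34Δ cells (69.77 to 69.85), 57.8% in rps3 cells (57.75 to 57.89) and 48.2% in asc1 cells (48.19 to 48.30). With the codon repeats the share was lower. It was 43.2% in dom34Δ (43.10 to 43.23) and 29.97% in rps3 cells (29.86 to 30.08) for (CGA)12, and 42.9% (42.83 to 42.94) and 35.5% (35.43 to 35.67) for (AAA)12. The SL and codon-repeat libraries did not overlap. The mean share was 58.6% over the 3 SL libraries and 37.9% over the 4 codon-repeat libraries. The difference was 20.7 percentage points (two-sided exact permutation test over libraries, p = 0.0571, the smallest this design allows). The test did not pair the libraries by strain, and asc1 cells were on the SL side only. Without asc1 cells the difference was 25.9 points (two-sided exact permutation test over libraries, p = 0.133, the smallest that this smaller set allows). Within dom34Δ cells SL exceeded (CGA)12 by 26.6 and (AAA)12 by 26.9 points, and within rps3 cells by 27.8 and 22.3 points.

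These positions lie at different distances from the 2 kinds of stall. They make up 46.1% of the positions between the start of the span and the stem loop and 58.1% of those up to the codon repeats. The share was also taken at one distance, 145 to 344 nt upstream of each stall, which was chosen after seeing the data. The SL share at this distance was 54.0% in dom34Δ, 62.9% in rps3 and 75.0% in asc1 cells. The mean difference from the codon repeats was then 26.0 points (two-sided exact permutation test, p = 0.0571, again the smallest possible). This test was not paired by strain either. The order of the SL strains was turned, with asc1 cells highest at the matched distance and lowest at the same positions.

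**Figure D1:**
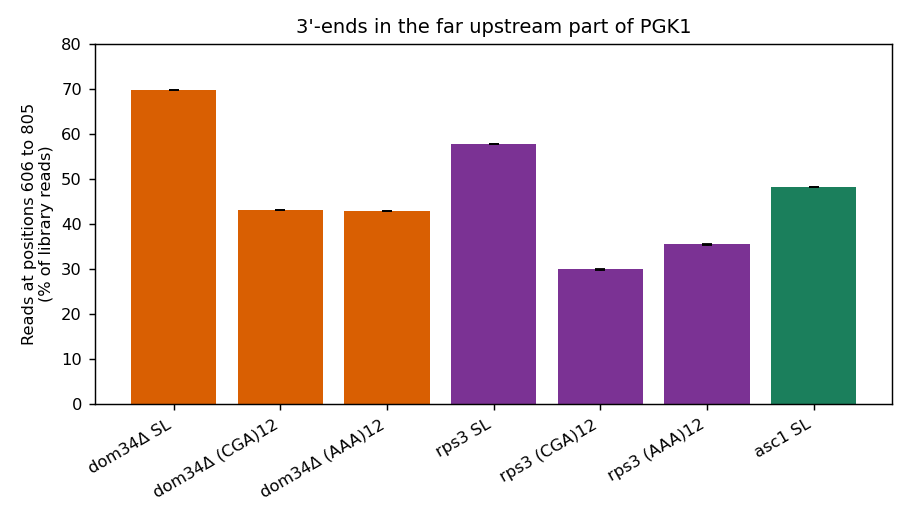
Share of each library's reads in the far upstream span (vertical axis, % of library reads) in the 7 libraries, coloured by strain, with 95% Wilson intervals, which are narrower than the line of the cap. The 3 SL bars, 48.2 to 69.8%, are above the 4 codon-repeat bars, 29.97 to 43.2%, and each rps3 bar is below the dom34Δ bar of the same reporter.

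With each reporter, rps3 cells had the lower share. It was lower than that of dom34Δ cells by 12.0 percentage points with SL, 13.2 with (CGA)12 and 7.34 with (AAA)12. The mean difference, rps3 minus dom34Δ, was -10.8 points (two-sided exact paired permutation test over the 3 reporters, p = 0.25, the smallest that 3 pairs allow). So all 3 pairs had the same direction, in a design that could not pass a threshold of 0.05.

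The density of 3'-ends also separated the reporters. In dom34Δ cells with SL an average far upstream position held 2.74 times as many reads as an average position between the span and the stem loop. This ratio was 1.62 in rps3 and 1.09 in asc1 cells with SL. With the codon repeats it was below 1 in each library, at 0.555 and 0.548 in dom34Δ and 0.314 and 0.403 in rps3 cells for (CGA)12 and (AAA)12. Of the 20 highest positions of a library up to the stall, 17 lay in the span in dom34Δ, 14 in rps3 and 10 in asc1 cells with SL. With the codon repeats 3 to 6 did. The span made up 46.1% of the positions ranked with SL and 58.1% of those ranked with the codon repeats. The 10 of 20 in asc1 cells were thus near the share of positions.

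Inside the span, the 3'-ends of dom34Δ cells with SL lay farthest upstream. The 50 positions farthest upstream, up to 655, held 23.6% of the reads of the 200 positions in these cells, 16.0% in rps3 and 8.24% in asc1 cells with SL, and 8.47 to 13.0% with the codon repeats. The last 50 positions, from 756 on, went the other way, with 19.5% in dom34Δ, 25.6% in rps3 and 39.3% in asc1 cells with SL and 35.4 to 41.7% with the codon repeats. Of the 4 stretches of 50 positions, the one farthest upstream was the lowest in every library except dom34Δ with SL, where the last was. The highest was 656 to 705 in dom34Δ cells with SL (28.9%), 706 to 755 in rps3 cells with SL (29.3%) and the last in the other 5 libraries. The median 3'-end within the span lay at position 696 in dom34Δ, 721 in rps3 and 746 in asc1 cells with SL, and between 730 and 747 in the codon-repeat libraries. By this measure asc1 cells with SL stood among the codon-repeat libraries.

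The reads were uneven over the 200 positions but not held by a few. The 5 highest positions of a library took 14.0 to 21.5% of the reads of the span, the 20 highest 36.5 to 46.4%, and the lower 100 positions together 10.4 to 15.2%. As a measure of evenness the effective number of positions was used, the exponential of the Shannon entropy, which gives how many equally used positions would be as diverse. It was 113.8 in dom34Δ, 108.0 in rps3 and 101.4 in asc1 cells with SL. With (CGA)12 it was 120.9 in dom34Δ and 104.9 in rps3 cells, and with (AAA)12 it was 125.2 and 100.7. Within each reporter dom34Δ cells thus had the most even distribution in the span. Counts were also capped at the 95th percentile of each library's positions from the start of the span up to the stall. Then dom34Δ was still the highest of each reporter, at 141.7 with SL, 124.5 with (CGA)12 and 131.1 with (AAA)12.

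A small set of positions was high whatever the strain or stall. Positions 691, 736 and 793 were among the 20 highest of the span in all 7 libraries. Of these only 691 was also among the 10 highest in all 7. The share of the span's reads at position 691, which lies 349 nt upstream of the stem loop and 259 nt upstream of the codon repeats, was 2.66% in dom34Δ, 3.03% in rps3 and 2.77% in asc1 cells with SL. It was 2.42% in dom34Δ and 2.13% in rps3 cells with (CGA)12, and 2.36% and 3.35% with (AAA)12. It was thus the steadiest of the 3, with its highest share 1.58 times its lowest.

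Position 736 varied more. It held 4.75% of the span's reads in rps3 cells with SL, where it was the highest position, compared with 1.80% in dom34Δ and 1.16% in asc1 cells with SL. With the codon repeats its share was 2.14% and 1.97% in dom34Δ and 2.70% and 2.61% in rps3 cells for (CGA)12 and (AAA)12. Position 793 held 2.06% in dom34Δ, 2.68% in rps3 and 1.30% in asc1 cells with SL. Its share was 3.59% and 3.15% in dom34Δ and 3.801% and 3.51% in rps3 cells with (CGA)12 and (AAA)12, so at this position each codon-repeat library was above each SL library.

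Positions 730, 760, 792 and 799 were among the 20 highest in 6 of 7 libraries, and 655, 676, 696, 747, 751, 765 and 766 in 5. These 14 positions together held 14.97% of the span's reads in dom34Δ cells with SL and 25.3 to 35.3% in the other 6 libraries. They were chosen as high in at least 5 of these same libraries, so these shares partly follow from the choice. Dom34Δ cells with SL were also the library that most limited the set: without it, 7 positions were among the 20 highest in each of the other 6. In all, 45 positions were among the 20 highest of at least 1 library, and 155 were so in none. Some positions were low throughout. At 621, 641, 642 and 803 no library had as much as 0.05% of the span's reads.

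**Figure D2:**
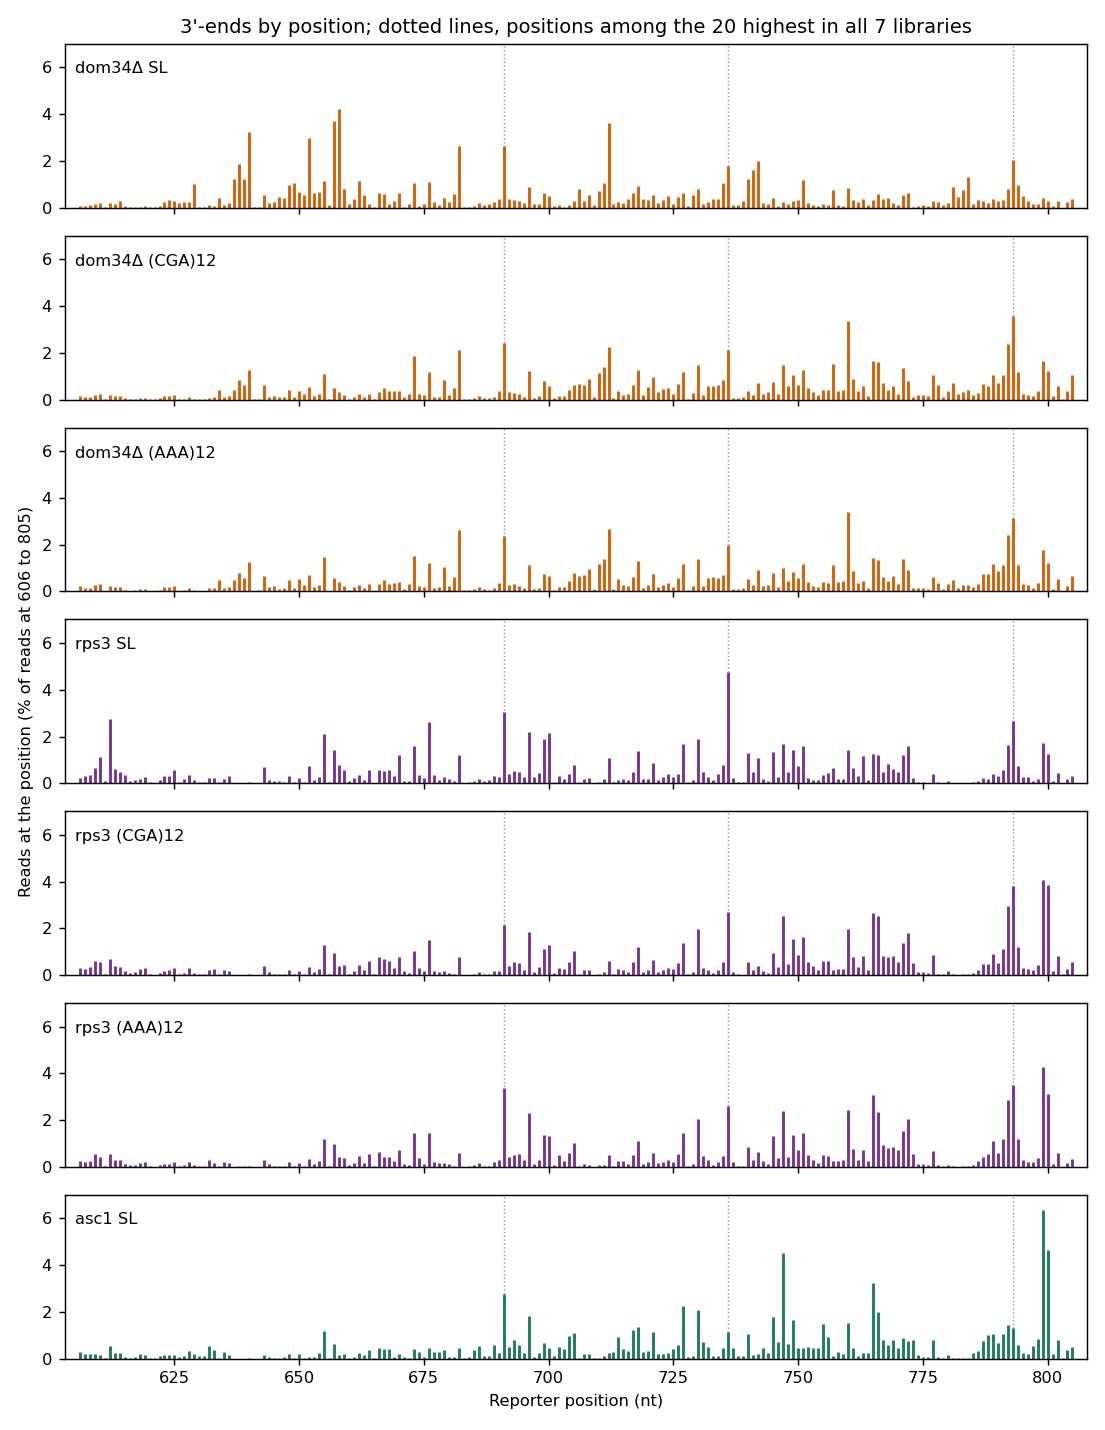
Share of the reads of the span at each of the 200 positions (vertical axis, % of the reads of the span; horizontal axis, reporter position in nt) in the 7 libraries, coloured by strain, with dotted lines at 691, 736 and 793. The clusters at 637 to 640 and 706 to 712 stand in the 3 dom34Δ panels and are lower in rps3 and asc1 cells, where 637 to 640 are near the baseline, while 799 and 800 are highest in asc1 cells.

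The highest position of the span depended on strain and stall. In dom34Δ cells with SL it was 658 with 4.21%, followed by 657 with 3.69%, 712 with 3.64%, 640 with 3.26% and 652 with 2.97%. Both 657 and 658, which are neighbours, were lower with the codon repeats in the same strain, at 0.48% and 0.31% for (CGA)12 and 0.57% and 0.42% for (AAA)12. With the codon repeats they ranked between 60 and 96 of the 200 positions. In rps3 cells with SL, 736 was followed by 691, by 612 with 2.75%, by 793 and by 676 with 2.60%.

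In asc1 cells the top of the profile lay at its downstream end. Position 799 held 6.35% of the span's reads and 800 held 4.66%, followed by 747 with 4.53%, 765 with 3.22% and 691. Position 799 was also the highest of rps3 cells with (CGA)12 (4.06%) and with (AAA)12 (4.28%), but held 1.71% in rps3 cells with SL. In dom34Δ cells it held 0.42% with SL, 1.66% with (CGA)12 and 1.79% with (AAA)12. In dom34Δ cells with the codon repeats the 2 highest positions were instead 793 and 760, and 760 held 3.37% with (CGA)12 and 3.40% with (AAA)12. The lists of the 5 highest were completed by 691, 792 and 712 for dom34Δ with (CGA)12, and by 712, 682 and 792 with (AAA)12. They were completed by 800, 793, 792 and 736 for rps3 with (CGA)12 and by 793, 691, 800 and 765 with (AAA)12.

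One set of positions was used in dom34Δ cells and hardly in the other strains. At 637, 638, 639 and 640 the dom34Δ library with SL had 1.22, 1.88, 1.23 and 3.26% of the span's reads. The dom34Δ libraries with codon repeats had 0.41, 0.84, 0.65 and 1.29% for (CGA)12 and 0.50, 0.78, 0.58 and 1.27% for (AAA)12. In rps3 and asc1 cells none of these 4 positions exceeded 0.044% in any of the 4 libraries. In reads, position 640 had 110758, 11821 and 14317 in dom34Δ cells with SL, (CGA)12 and (AAA)12, 490, 85 and 84 in rps3 cells and 266 in asc1 cells. At position 638 the share in dom34Δ cells was 120.04-fold that of rps3 cells with SL, 65.6-fold with (CGA)12 and 31.8-fold with (AAA)12. The next position, 641, dropped to 0.0424% or less in every library, dom34Δ included.

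To find such places in the whole span, positions were counted whose share of the library differed at least 2-fold between dom34Δ and rps3 cells in the same direction with all 3 reporters. This rule was chosen after seeing the data and has no test. With 1 reporter at a time, 62 positions were higher in dom34Δ and 43 in rps3 cells with SL, where 18.3% and 31.9% of all positions up to the stall were. With (CGA)12 there were 69 and 14 of 199, against 26.5% and 10.2% of all positions, and with (AAA)12 53 and 6 of 200, against 20.9% and 4.94%. Asc1 cells with SL were higher than dom34Δ cells at 37 positions (18.5%) and lower at 79 (39.5%). Of all positions up to the stall, 34.1% and 27.3% were. Set against rps3 cells, asc1 cells were higher at 29 of 199 positions (14.6%) and lower at 56 (28.1%). The shares of all positions were 19.8% and 26.1%. With all 3 reporters together, of the 200 positions, 41 (20.5%) were higher in dom34Δ cells, where 14.2% of all positions up to the codon repeats were, and 4 (2%) were higher in rps3 cells, where 3.49% of all positions were. With shares of the span's reads in place of shares of the library the counts were 31 and 9. Most of the 41 stood in groups of neighbours: 33 fell into 5 runs of at least 3 positions, at 637 to 642, 645 to 652, 681 to 683, 706 to 713 and 778 to 785. The remaining 8 were 634, 672, 716, 729, 733, 738, 739 and 744. The 41 were spread over the 3 remainders of the position divided by 3, with 14 at remainder 0, 15 at 1 and 12 at 2.

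The runs held a sizeable part of the dom34Δ reads. Together the 33 positions took 29.9% of the span's reads in dom34Δ cells with SL, 18.1% with (CGA)12 and 19.2% with (AAA)12. In rps3 cells they took 5.18, 3.78 and 3.07%, and in asc1 cells with SL 3.10%. The rule did not use asc1 cells. It kept positions that were high in dom34Δ cells, so a gap to asc1 cells is partly built in as well. The run at 637 to 642 differed most, with 7.69, 3.25 and 3.21% in dom34Δ, 0.111, 0.109 and 0.116% in rps3 and 0.051% in asc1 cells. The run at 706 to 713 was the one with the most similar shares over the 3 reporters in dom34Δ cells, at 7.40, 7.19 and 7.81%, against 1.88, 1.37 and 0.98% in rps3 and 1.22% in asc1 cells. At 645 to 652 the shares in dom34Δ cells were 7.38, 2.09 and 2.71%, and those in rps3 cells 1.57, 0.97 and 0.89%, so SL stood above the codon repeats in both strains.

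The remaining 2 runs were those at 681 to 683 and 778 to 785. At the first of them the shares were 3.29, 2.66 and 3.33% in dom34Δ, 1.34, 0.84 and 0.65% in rps3 and 0.57% in asc1 cells. At 778 to 785 they were 4.17, 2.94 and 2.18% in dom34Δ, 0.28, 0.50 and 0.43% in rps3 and 0.58% in asc1 cells. For each of the 5 runs all 3 dom34Δ libraries lay above all 4 others. The rule itself fixed the separation from rps3 cells and, by keeping positions high in dom34Δ cells, favoured that from asc1 cells. Without the 41 positions the remaining 159 held 47.2% of the library in dom34Δ and 54.4% in rps3 cells with SL, 34.4% and 28.6% with (CGA)12, and 33.6% and 34.2% with (AAA)12. The lower share of rps3 cells thus held only for (CGA)12 outside those positions, which were themselves chosen as higher in dom34Δ cells. What makes these places differ was not tested.

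**Figure D3:**
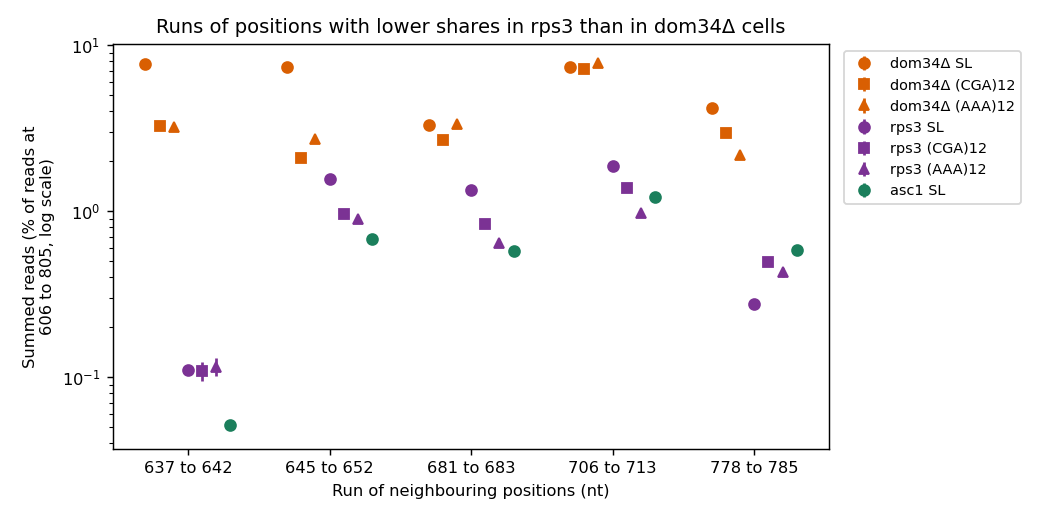
Summed share of the reads of the span in 5 runs of neighbouring positions (vertical axis, %, log scale) for the 7 libraries, coloured by strain and shaped by reporter, with 95% Wilson intervals. At 637 to 642 the dom34Δ libraries hold 3.21 to 7.69% and the others 0.051 to 0.116%, the widest gap of the 5 runs.

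The 4 positions higher in rps3 cells with all 3 reporters were 612, 616, 773 and 800. Position 612 had 2.75% of the span's reads in rps3 cells with SL against 0.22% in dom34Δ and 0.54% in asc1 cells. With (CGA)12 it had 0.68% in rps3 against 0.20% in dom34Δ cells, and with (AAA)12 0.54% against 0.22%. Position 773 held 0.82% in asc1 cells with SL, above the 0.21% of rps3 and the 0.033% of dom34Δ cells. At 616 no library had more than 0.082%.

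A stricter count asked which positions held at least 0.5% of the span's reads in a library and at least 4-fold the share of every other strain with the same reporter. With dom34Δ there were 16 such positions for SL, 13 for (CGA)12 and 15 for (AAA)12. With rps3 there were 3, 1 and 0, and with asc1, which had SL only, 3. When the same rule was put to shares of all reads up to the stall, 17 positions (8.5%) passed in dom34Δ cells with SL, where 4.61% of all positions up to the stem loop did. In dom34Δ cells 4 positions (2%) passed with (CGA)12 and 4 with (AAA)12, against 1.45% and 1.16% of all positions up to the codon repeats. In rps3 cells with SL 2 (1%) passed against 0.461% of all, and in asc1 cells 0 against 1.15%. In rps3 cells with the codon repeats 0 passed, as did 0 of all positions. The counts thus depended on the denominator: by the reads up to the stall they fell in dom34Δ cells with the codon repeats, from 3 to 0 in asc1 cells, from 3 to 2 in rps3 cells with SL and from 1 to 0 in rps3 cells with (CGA)12.

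By shares of the span's reads, the positions of rps3 and asc1 cells that passed were 4.09-fold to 6.10-fold above the next strain. In rps3 cells with SL they were 610 with 1.14%, 6.10-fold the next strain, 612, 5.12-fold, and 700 with 2.13%, 4.37-fold. In asc1 cells they were 798 with 0.87%, 4.86-fold, 788 with 1.02%, 4.48-fold, and 755 with 1.48%, 4.09-fold. The single one of rps3 cells with (CGA)12 was 773 with 0.51%, 4.65-fold. None of these 7 reached 8-fold, which 11 of the 16 dom34Δ positions with SL did.

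Position by position, the codon repeats gave nearly the same pattern as each other within a strain. Of the 200 positions, 1 differed at least 2-fold in library share between (CGA)12 and (AAA)12 in dom34Δ cells, where 18% of all positions did, and 1 of 173 with enough reads in rps3 cells, where 15.5% did. Between SL and (CGA)12, 70 positions were at least 2-fold higher with SL in dom34Δ cells, where 25.6% of all positions were, and 13 were higher with (CGA)12, where 24.4% were. Between SL and (AAA)12 in these cells, 59 (29.5%) were higher with SL and 12 (6%) with (AAA)12. Of all positions, 18.6% and 23.5% were. In rps3 cells 102 of 197 were higher with SL, against 38.7% of all positions, and 0 with (CGA)12, against 15.8%. Set against (AAA)12, 80 of 197 were higher with SL and 3 lower in rps3 cells, compared with 26.1% and 15% of all positions. These counts follow the share of the whole span, which was higher with SL.

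By the correlation of their counts, profiles of one strain were mostly more alike than profiles of one reporter. Across the 200 positions the Spearman correlation of the counts was 0.70 to 0.98 for the 6 pairs of libraries of one strain and 0.20 to 0.74 for the 5 pairs of one reporter. The 10 pairs that differed in both ranged from 0.35 to 0.87, with a median of 0.62. The highest of these, asc1 cells with SL against rps3 cells with (CGA)12 (0.85) and (AAA)12 (0.87), lay above the pairs of SL and codon repeats in dom34Δ cells. The pairs of (CGA)12 and (AAA)12 were the closest, at 0.97 in dom34Δ and 0.98 in rps3 cells. In rps3 cells SL correlated with (CGA)12 and (AAA)12 at 0.92 each, and in dom34Δ cells at 0.70 and 0.72. The least alike were dom34Δ and asc1 cells with SL, at 0.20, compared with 0.44 for dom34Δ and rps3 and 0.74 for rps3 and asc1 cells. The reads that a pair of profiles shared were summed over positions as the lower of both shares. They ranged from 66.4 to 92.5% within a strain and from 47.4 to 73.6% within a reporter. With (CGA)12 and (AAA)12, dom34Δ and rps3 cells shared 73.3% and 73.6%. SL shared less with these repeats within dom34Δ cells (66.4% and 68.8%) and more within rps3 cells (78.7% and 79.2%). Asc1 cells entered no pair of one strain. The (CGA)12 and (AAA)12 pairs, which have one stall position, entered no pair of one reporter. Positions are not independent replicates, since neighbours and a whole library share their preparation, so these values describe the libraries and have no test.

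Nearer the stall, over the 144 positions between the span and the codon repeats, the contrast depended on the measure. There the correlation was 0.64 to 0.89 within a strain (median 0.73) and 0.26 to 0.87 within a reporter (median 0.69). The shared reads went the other way, with medians of 68.9% within a strain and 74.6% within a reporter. With the codon repeats dom34Δ and rps3 cells correlated at 0.65 and 0.69 in the far upstream span and at 0.87 and 0.86 nearer the stall, for (CGA)12 and (AAA)12. This comparison was chosen after seeing the data, and the stretches differ in length.

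The SL and codon-repeat profiles of a strain were more alike at the same place in the reporter than at the same distance from the stall. The codon-repeat profiles of the span were set against the SL profile of the same strain at the same positions and at positions 90 nt farther on, which lie as far from the stem loop. In dom34Δ cells the correlation was 0.70 and 0.72 at the same positions for (CGA)12 and (AAA)12, and 0.06 and 0.09 at the same distance. In rps3 cells it was 0.92 and 0.92 at the same positions, against 0.13 and 0.11. Over the 121 shifts from 0 to 120 nt the value was highest at 0 in all 4 comparisons, and the next highest was 0.23 to 0.24 in dom34Δ cells, at a shift of 15 nt, and 0.29 to 0.31 in rps3 cells, at 1 nt. The shift of 90 nt ranked between 13 and 21. These values cover all 200 positions. Of the 20 highest positions, SL shared 7 with (CGA)12 and 8 with (AAA)12 in dom34Δ cells, and 16 with each in rps3 cells.

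**Figure D4:**
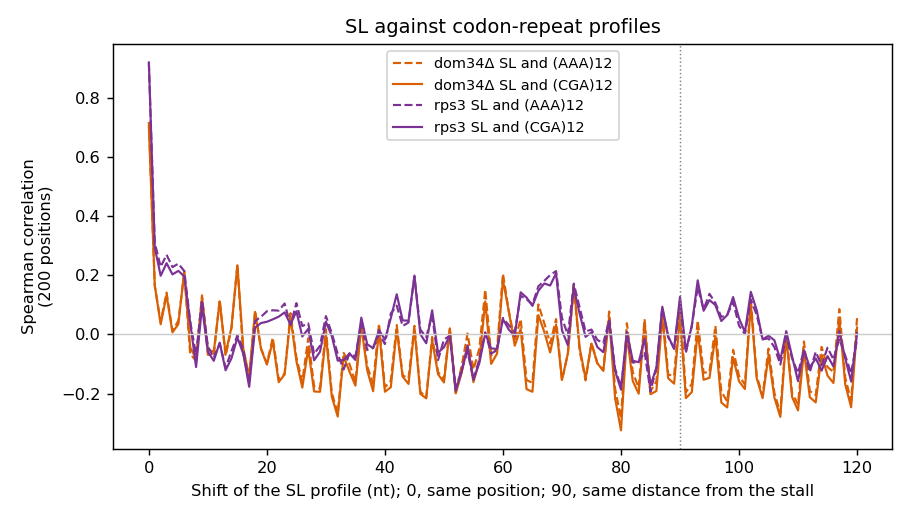
Spearman correlation over 200 positions (vertical axis) between a codon-repeat profile of the span and the SL profile of the same strain moved by 0 to 120 nt (horizontal axis), coloured by strain, with solid lines for (CGA)12 and dashed lines for (AAA)12. The 4 lines are highest at a shift of 0, between 0.70 and 0.92, and lie between 0.06 and 0.13 at the dotted line at 90 nt, the same distance from the stall.

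By summed reads, the 3'-ends had a 3-nt pattern in every library. Of the span's reads, 51.9% in dom34Δ, 52.6% in rps3 and 39.9% in asc1 cells with SL lay at positions that leave remainder 1 when divided by 3. With (CGA)12 this share was 50.8% in dom34Δ and 47.0% in rps3 cells, and with (AAA)12 50.7% and 47.5%. An even spread would give 33.3%. Remainder 2 held the fewest reads, 18.3 to 22.1% in the 6 dom34Δ and rps3 libraries and 27.8% in asc1 cells, and remainder 0 held 28.3 to 32.3%. The pattern was thus least uneven in asc1 cells. The widest interval among these shares was that of rps3 cells with (CGA)12 at remainder 1, 46.8 to 47.2%. In asc1 cells the median count per position was 3663, 4255 and 4219 reads at remainder 0, 1 and 2, so remainders 1 and 2 were close.

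Remainder 1 held the most reads in each of the 4 stretches of 50 positions in each library, 28 of 28 in all, with 38.0 to 58.3%. Among the 20 highest positions of a library, 12 to 14 were at remainder 1, and the 3 positions high in all 7 libraries, 691, 736 and 793, were too. Of the 45 positions among the 20 highest of any library, 26 were at remainder 1, 13 at remainder 0 and 6 at remainder 2. The span holds 66 complete triplets that start at remainder 0. Within these, remainder 1 was the highest of its triplet in 33 to 39 triplets in dom34Δ and rps3 cells and in 22 in asc1 cells, where remainder 0 was the highest in 26. The same remainder was highest in all 7 libraries in 30 of the 66. Between the span and the stall, remainder 1 held 39.6 to 52.8% of the reads, so the pattern was not confined to the far upstream positions. Which base of a codon remainder 1 stands for is not settled.

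**Figure D5:**
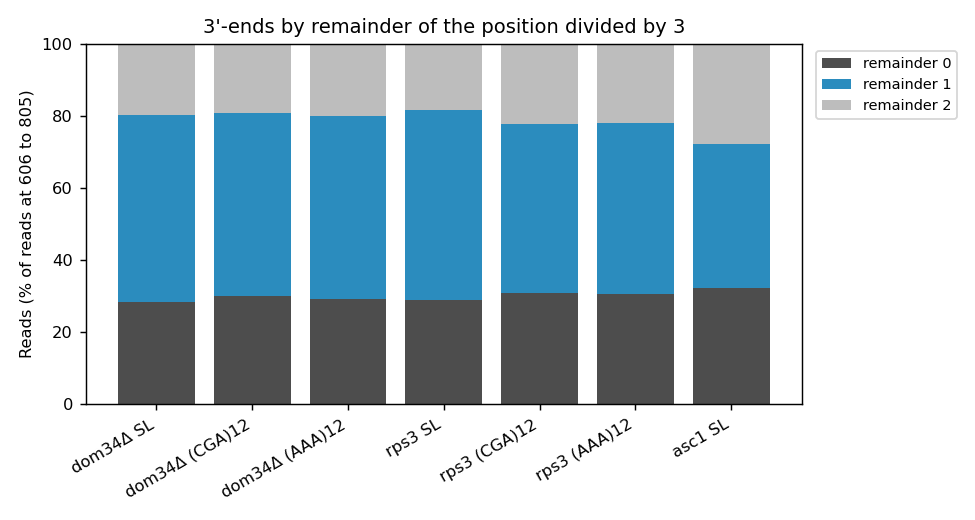
Share of the reads of the span (vertical axis, %) at positions that leave remainder 0, 1 or 2 when divided by 3, stacked for the 7 libraries. Remainder 1 holds 47.0 to 52.6% in the dom34Δ and rps3 libraries and 39.9% in asc1 cells with SL.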

How the data were processed

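The data are 3'-end sequencing of 5'-fragments of 3 PGK1 reporters, and the far upstream span is positions 606 to 805. RNA with a ligated adaptor was amplified by the authors from a primer at position 585. Reads were trimmed with cutadapt and mapped to the reporters with Novoalign. The submitters' processing notes give version 1.12 of cutadapt and name bedtools and SAMtools too. The deposited files hold raw counts of 3'-ends per position and leave out positions without reads. How PCR duplicates and multiple matches were handled is not given in the sources used here. Fragments that end in the span give shorter products than those that end at the stall, so a length bias of the PCR would act on these counts.

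Counts were divided by the total of the library or of the span, and 3 reads correspond to 6.16e-05% to 0.000495% of a library. Wilson 95% intervals were used, and for the effective number an interval from the variance of the entropy. Groups were compared over libraries by exact permutation. A position was compared between libraries where at least 1 of them had 100 reads. The positions, lists and rules were chosen with earlier results of these data known. The text names the 5 highest positions of each library, those among the 20 highest in all 7, the 3 most specific per strain and reporter, and the highest and lowest stretch of 50 positions. Other positions were named after their values were seen. Alternatives were other denominators, capped or thinned counts, left-out positions or libraries and other thresholds. The calculations were tested on simulated profiles. Python 3.11.15, NumPy 2.4.6, SciPy 1.17.1, pandas 2.3.3 and matplotlib 3.10.9 were used. Locus names are from R64.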

Additional observations from a re-analysis of the deposited data

Results flagged for a closer look

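At position 657 the difference between rps3 and dom34Δ cells had opposite directions with SL and with the codon repeats. The share of the span's reads in rps3 cells was 0.380 times that in dom34Δ cells with SL, 1.94 times with (CGA)12 and 1.74 times with (AAA)12. With a single library for each strain and reporter, this difference was not tested.

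A few reads were listed upstream of the span in each library. Their number was 179 in dom34Δ, 674 in rps3 and 14 in asc1 cells with SL. It was 16 in dom34Δ and 26 in rps3 cells with (CGA)12, and 33 and 12 with (AAA)12. These sums cover 2 to 27 positions per library. The 3 reads that a count of 0 allows apply to a single position and are no bound for them. The highest share was 0.0324% of the library, in rps3 cells with SL. With SL the highest of these positions was 513 in dom34Δ (34 reads), 583 in rps3 (96 reads) and 605 in asc1 cells (9 reads). Positions 513 and 583 lie upstream of position 585, where the amplification primer anneals, and 605 lies downstream of it. Where the reads upstream of the primer come from was not tested. No control library was at hand for these reads.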

How the results depend on the processing

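Replicates could not be paired, because the conditions share only the replicate number 1. Only the rps3 and dom34Δ libraries were paired, by reporter. Each value rests on 1 deposited library, and most alternative values count as moved only because the counting interval is narrow. Of 147 alternative values, 101 moved and 46 did not. Only the differences and correlations could change sign, and none of them did. The causes were not tested. The matched distance and the comparisons over all 3 reporters were chosen after seeing the data.

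The share of the span ran from 30.4 to 70.1% of the reads up to the stall, from 35.3 to 66.2% with capped counts and from 31.6 to 68.9% when each library's highest position was left out. SL minus codon repeats was 15.1 to 25.9 points without any 1 library (lowest without dom34Δ with SL) and 15.1 with capped counts, and rps3 minus dom34Δ was -12.6 to -9.66 points without any 1 reporter.

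The effective number ran from 103.1 to 141.7 with capped counts and from 102.9 to 127.2 without the highest position. With capped counts the highest library was dom34Δ with SL and no longer dom34Δ with (AAA)12. The cap was set over all positions from the start of the span up to the stall. Of the 20 highest of these, 17 lay in the span in dom34Δ with SL and 6 in dom34Δ with (AAA)12. With capped counts remainder 0, 1 and 2 held 29.95 to 32.6%, 38.3 to 49.6% and 19.7 to 29.1%, and without the 5 highest positions 29.95 to 33.8%, 39.2 to 47.0% and 21.8 to 29.5%.

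Positions high in all 7 libraries numbered 1 among the 10 highest and 6 among the 30 highest, and 3 to 7 without any 1 library. At 2-fold, specific positions numbered 28, 11 and 19 for SL (dom34Δ, rps3, asc1), 12 for rps3 with (CGA)12 and 11 with (AAA)12. At 8-fold they numbered 0 in rps3 and asc1 cells with SL, 0 in rps3 cells with (CGA)12 and 9 in dom34Δ cells with (AAA)12. With at least 1% of the reads, they numbered 9, 4 and 7 in dom34Δ cells with SL, (CGA)12 and (AAA)12, and 0 in rps3 cells with (CGA)12. None of these counts was set against all positions up to the stall.

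Positions higher in dom34Δ with all 3 reporters numbered 22 at 4-fold, and those higher in rps3 cells 0. By the share within the span there were 31 and 9. For these counts the share over all positions up to the stall was not taken. Pearson's correlation of log2(count + 1) was 0.72 and 0.75 in dom34Δ and 0.93 and 0.92 in rps3 cells at the same positions for (CGA)12 and (AAA)12, and 0.0464, 0.0712, 0.0959 and 0.0701 at the same distance.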

Other observations

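The profile of asc1 cells with SL was closer to those of rps3 cells with the codon repeats than to that of rps3 cells with SL in the far upstream span. Across the 200 positions the Spearman correlation was 0.85 with (CGA)12 and 0.87 with (AAA)12, against 0.74 with SL. The 200 positions of a library share its preparation, and these values have no test. Of the 20 highest positions asc1 cells shared 15 with rps3 cells with (CGA)12, 14 with (AAA)12 and 12 with SL. Among those shared with both codon-repeat libraries, 799, 800, 747 and 765 were chosen after their values were seen. In asc1 cells with SL they held 6.35, 4.66, 4.53 and 3.22% of the span's reads, in rps3 cells with (CGA)12 4.06, 3.85, 2.52 and 2.66%, in rps3 cells with (AAA)12 4.28, 3.10, 2.37 and 3.08%, and in rps3 cells with SL 1.71, 1.25, 1.66 and 1.26%.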
